A study of Mus musculus with 6 samples.

Results

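The genes described are the 10 AP-1 and immediate early genes Fos, Fosb, Fosl1, Fosl2, Jun, Junb, Jund, Atf3, Egr1 and Ier2, taken by name from the deposited table of 21627 genes. All 10 passed the filter on low counts that left 14196 genes for testing. RNA was sequenced from mammary organoids of female FVB/N mice of the MIC line, aged 8 to 12 weeks. In these mice doxycycline induces the polyomavirus middle-T antigen and, where Ezh2 alleles are conditional, deletes them. The 3 wild-type (WT) libraries carried the genotype MIC/Wild-type and the 3 knockout (KO) libraries the genotype MIC/Conditional Ezh2 KO, so the oncogene was induced in both groups. About 10000 epithelial cells were plated in medium with EGF, insulin and hydrocortisone and formed acini over 6 days. All 6 cultures then received doxycycline at 2 µg/ml for 8 days with medium changes every 48 hours. The promoter that drives the induction, and the time from the last medium change to lysis, were not found in the labels. Whether the replicates are separate mice or cultures is not stated, and p-values therefore measure only the spread between these libraries, which may be technical.

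AP-1 is a transcription factor made of a Fos family protein paired with a Jun family protein, or of Jun family pairs, held together by leucine zippers. It binds short sites of the form TGANTCA. Growth factors, stress and oncogenic kinases raise Fos, Jun, Egr1 and Ier2 mRNA within minutes through the MAP kinases, the serum response factor SRF and CREB family factors, and these mRNAs are then degraded quickly. In epithelial cells AP-1 regulates proliferation, migration and matrix proteases, and middle T antigen is known to activate Src, Ras and MAP kinase signalling.

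The promoters of Fos, Jun and Atf3 are shown because they hold some short sites through which these genes are known to be induced. Atf3 is also the gene whose level differed most between the groups. Each is the 250 bases before the start in RefSeq, build GRCm38.p6, written on the gene's strand, and capitals mark matches to the motifs searched on both strands.
Fos: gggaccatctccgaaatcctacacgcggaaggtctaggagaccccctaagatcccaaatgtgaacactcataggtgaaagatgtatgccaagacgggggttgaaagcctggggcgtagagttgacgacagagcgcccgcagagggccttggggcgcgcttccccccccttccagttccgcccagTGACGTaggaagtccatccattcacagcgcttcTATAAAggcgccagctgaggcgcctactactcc
Jun: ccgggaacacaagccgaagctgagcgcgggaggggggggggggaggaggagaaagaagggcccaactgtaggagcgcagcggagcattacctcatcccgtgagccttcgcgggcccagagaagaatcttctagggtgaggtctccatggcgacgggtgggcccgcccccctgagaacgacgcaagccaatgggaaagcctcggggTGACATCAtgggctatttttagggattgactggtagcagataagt
Atf3: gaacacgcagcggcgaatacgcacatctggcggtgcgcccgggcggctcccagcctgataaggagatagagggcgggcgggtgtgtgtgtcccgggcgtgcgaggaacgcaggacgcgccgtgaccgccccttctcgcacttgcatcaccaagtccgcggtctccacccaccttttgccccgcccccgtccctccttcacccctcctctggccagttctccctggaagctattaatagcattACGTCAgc
They lie at chr12:85473640-85473889 (plus strand), chr4:95052223-95052472 (minus strand) and chr1:191183334-191183583 (minus strand). The RefSeq table matched 7 of the 10 genes, and the motif counts cover those 7 genes. The core of the cyclic AMP response element, TGACGT, lay 66 bases before the Fos start and, on the other strand, 8 bases before the Atf3 start in RefSeq. The deposited span of Atf3 reaches 191183340, so the end of its window, with most of this core, lies within that span. That core occurs in 6.47% of 32851 promoters of the same length. The Jun promoter held TGACATCA, the AP-1-like site of Jun, 45 bases before its start, which 2.93% of promoters hold. Fos alone of the 7 held TATAAA (12.4% of promoters), 33 bases before its start. None of the 7 windows held TGANTCA (6.75% of promoters) or a CArG box, the SRF site (1.47%). Bases farther than 250 before the start were not searched, nor were the genes without a match. Such sites may therefore lie outside the windows. These motifs do not overlap one another in the windows shown, and a match is a description of letters, not of binding.

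Fos mRNA also carries pentamers of the form ATTTA in its 3' untranslated region, which decay factors are known to bind. The 30 bases with the densest pentamers, at chr12:85477102-85477131 on the plus strand in mm10, are shown with the pentamers in capitals.
Fos decay element: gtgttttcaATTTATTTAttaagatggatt
The Fos untranslated region of 815 bases held 4 such pentamers, Fosl2 held 8, Jun 4 and Atf3 3, and Ier2 held 0. At least 3 pentamers were present in 4 of the 10 genes and in 38.5% of 13127 tested coding genes. Jun, Junb, Jund and Ier2 have a single exon in the longest transcript, which is 4 of 10 genes against 7.89% of the tested genes. The longest transcripts of the 10 genes had a median GC content of 56.6%, against 49.8% over the tested genes.

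The libraries held between 18292722 and 29203634 counts, with all KO libraries deeper than the WT libraries. Ezh2, the methyltransferase that writes H3K27me3, ranged from 14.7 to 22.6 CPM in WT and from 5.84 to 7.28 CPM in KO libraries (CPM, the count relative to the library total, scaled for composition). Its log2 fold change was −1.48 ± 0.20 (SE), with an adjusted p of 0.0755 in edgeR's quasi-likelihood test and 1.46e-07 in DESeq2. Luminal epithelial markers summed to 5827 to 6534 CPM in WT and 5600 to 5790 CPM in KO libraries, and basal markers to 481 to 561 and 448 to 507 CPM. Fibroblast markers summed to 2361, 9347 and 12965 CPM in WT replicates 1 to 3 and to 8659 to 10131 CPM in KO libraries. Immune markers summed to 482, 2056 and 758 CPM in WT replicates 1 to 3 and to 482 to 611 CPM in KO libraries. The lymphocyte markers Cd3e, Cd79a and Ms4a1 had at most 6 counts in any library, and endothelial markers summed to at most 12.3 CPM. In bulk RNA, fewer cells of a type and less RNA per cell cannot be told apart.

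Atf3 was lower in the Ezh2 KO organoids by DESeq2 and not by edgeR at the same threshold, and the other 9 genes passed neither test. Atf3 encodes a stress-induced factor of the ATF/CREB family that pairs with Jun proteins and often represses its targets. It lies on chromosome 1 from 191170296 to 191183340 in mm10 (ENSMUSG00000026628). Its level was 15.2, 20.6 and 12.9 CPM in WT replicates 1 to 3 and 9.49, 8.94 and 8.15 CPM in KO replicates 1 to 3. The highest KO library was below the lowest WT library, and the KO values lay closer together. The KO mean was 8.86 ± 0.673 CPM and the WT mean 16.2 ± 3.94 CPM (SD, n = 3 per group). The KO mean was thus at 54.7% of the WT mean. On the log2 scale the KO level differed from the WT level by −0.87 ± 0.20 (SE), and the 95% interval ran from −1.35 to −0.39. Over all 14196 genes the adjusted p was 0.106 in edgeR's quasi-likelihood test and 0.00738 in DESeq2, so Atf3 passed the threshold of 0.05 in DESeq2 and not in edgeR. In the authors' deposited table, whose test is not named, Atf3 had a log2 fold change of −0.72 and an adjusted p of 0.0100. The deposited fold changes were read as shrunken, with Ezh2 at −1.24 in the same table, so −0.72 is not directly comparable with −0.87. No other of the 10 genes was under 0.05 there, where 6.18% of the genes given an adjusted p were under it. The two-sided exact permutation p was 0.1, and 20 arrangements of 6 libraries cannot give a smaller one.

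Atf3 was highest in WT replicate 2, the library in which immune markers were also highest. Without that library its log2 fold change was −0.66, and DESeq2 gave an adjusted p of 0.0144. The median log2 fold change of the 12 immune markers tested was −1.44 with all libraries and −0.52 without WT replicate 2. The part of immune cells in the Atf3 difference was not tested. Leaving out any of the KO libraries in DESeq2 raised the adjusted p of Atf3 past the threshold, to 0.077 without KO replicate 1, 0.0938 without KO replicate 2 and 0.140 without KO replicate 3, while the log2 fold change stayed between −0.91 and −0.79. 

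**Figure D1:**
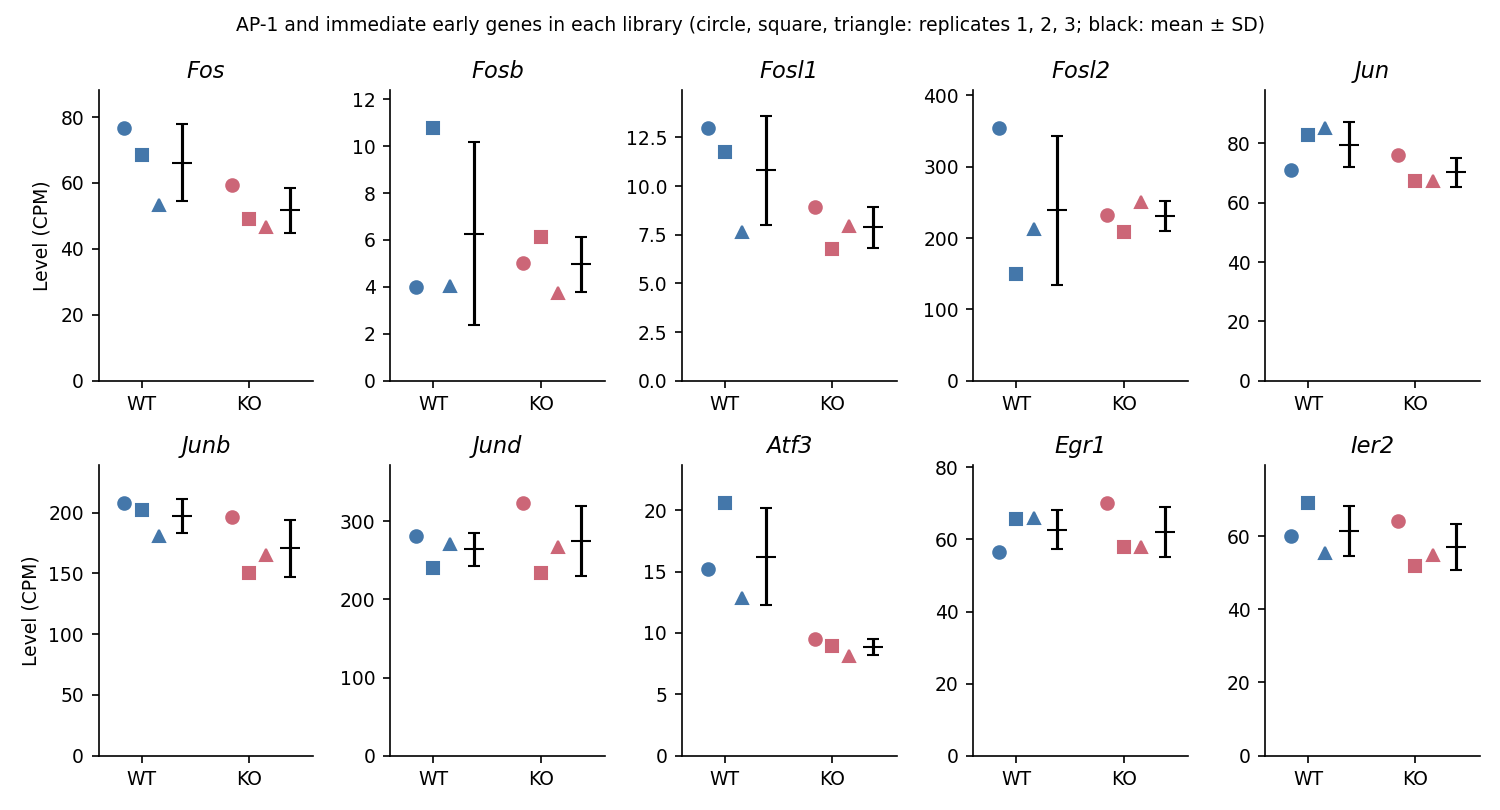
Level in CPM (y axis, from 0) of each of the 10 genes in the WT and KO libraries, with the mean and SD of each group in black. The KO values of Atf3, from 8.15 to 9.49 CPM, lie below all WT values, and the groups overlap for the other 9 genes.

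Among the Fos family genes, which encode the partners that need a Jun protein to bind DNA, no difference passed a test. Fos, the prototype of the family, was at 76.6, 68.6 and 53.4 CPM in WT replicates 1 to 3 and 59.4, 49.0 and 46.7 CPM in KO replicates 1 to 3. KO replicate 1 lay above WT replicate 3, so the groups overlapped. The log2 fold change of Fos was −0.36 ± 0.16 (SE), its 95% interval ran from −0.74 to 0.02 and its adjusted p was 0.278 in edgeR. It was −0.23 without WT replicate 1. Fosl1, which encodes Fra-1, a factor linked to invasion in mammary tumour cells, measured 13.0, 11.8 and 7.66 CPM in WT replicates 1 to 3 and, in the same order, 8.90, 6.77 and 7.97 CPM in the KO replicates. WT replicate 3 lay within the KO range, and the other WT libraries lay above it. Its log2 fold change was −0.46 ± 0.24 (SE), with an interval of −1.01 to 0.10 and an adjusted p of 0.329 in edgeR, and it was −0.29 without WT replicate 1. Where Ccdc85b overlaps Fosl1 on the other strand, reads of these genes may not be told apart, because no strand-marking step is named. Ccdc85b had 3782 counts in all libraries together, and Fosl1 had 137 to 300 counts per library.

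For the remaining Fos family genes the WT libraries stood far apart. Fosb, which also encodes the shorter and stable ΔFosB, measured 3.98, 10.8 and 4.03 CPM in WT replicates 1 to 3 and, in the same order, 5.01, 6.12 and 3.75 CPM in the KO replicates. Its WT mean therefore rested on WT replicate 2, with the log2 fold change at −0.33 ± 0.43 (SE) over all libraries and at 0.31 without that library. Its 95% interval ran from −1.35 to 0.68. Fosl2, which encodes Fra-2, measured 354, 149.8 and 213 CPM in WT replicates 1 to 3 and, in the same order, 232, 209 and 251 CPM in the KO replicates. WT replicate 1 was the highest library and WT replicate 2 the lowest, with all KO libraries between WT replicates 1 and 2. The fitted difference was −0.05 ± 0.29 (SE, log2), its interval −0.73 to 0.63, and it was 0.36 without WT replicate 1. WT replicate 1 also held the lowest fibroblast marker sum (2361 CPM), and the part of cell composition in the spread of Fosl2 was not tested.

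The Jun family genes, whose proteins pair with Fos proteins or with each other, passed neither test, with fold changes from −0.21 to 0.06 on the log2 scale. Jun measured 71.0, 82.7 and 85.1 CPM in WT replicates 1 to 3 and, in the same order, 75.9, 67.5 and 67.3 CPM in the KO replicates. WT replicates 2 and 3 were above all KO libraries and WT replicate 1 was not. For Jun the log2 fold change of −0.18 ± 0.11 (SE) had a 95% interval from −0.44 to 0.08. The antisense gene Junos overlaps Jun, with 632 counts in all libraries together, and its reads are uncertain for the same reason as those of Fosl1. Junb, which can restrain Jun activity, measured 208, 202 and 181 CPM in WT replicates 1 to 3 and, in the same order, 196, 150.3 and 165 CPM in the KO replicates. KO replicates 2 and 3 were below all WT libraries, and KO replicate 1 was within the WT range. Its log2 fold change was −0.21 ± 0.13 (SE), with an interval of −0.51 to 0.10.

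Jund, the member of the family known for steady expression in resting cells, measured 281, 241 and 271 CPM in WT replicates 1 to 3 and, in the same order, 323, 234 and 267 CPM in the KO replicates. KO libraries held both the highest and the lowest value. Its log2 fold change of 0.06 ± 0.14 (SE), with an interval of −0.28 to 0.40, was the only positive value among the 10 genes, and it was −0.10 once trends on gene length and GC content were removed. Gm11175, for which no counts were available, overlaps Jund on the other strand, so some reads counted for Jund may come from Gm11175. The adjusted p in edgeR was 0.408 for Jun, 0.407 for Junb and 0.862 for Jund.

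Egr1 and Ier2, immediate early genes outside the AP-1 families, passed neither test. Egr1 encodes a zinc finger factor that growth factors induce through SRF, and it measured 56.5, 65.8 and 65.9 CPM in WT replicates 1 to 3 and, in the same order, 70.0, 58.0 and 57.9 CPM in the KO replicates. KO replicate 1 was the highest library and WT replicate 1 the lowest. The fitted difference was −0.02 ± 0.12 (SE, log2), and its 95% interval of −0.30 to 0.27 corresponds to a KO level of 0.810 to 1.21 times the WT level. Ier2, which encodes a nuclear protein induced together with Fos, measured 60.0, 68.9 and 55.3 CPM in WT replicates 1 to 3 and, in the same order, 64.1, 51.9 and 54.9 CPM in the KO replicates. Its groups overlapped, with WT replicate 2 highest and KO replicate 2 lowest. The fitted difference was −0.11 ± 0.13 (SE, log2), its interval −0.41 to 0.20.

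**Figure D2:**
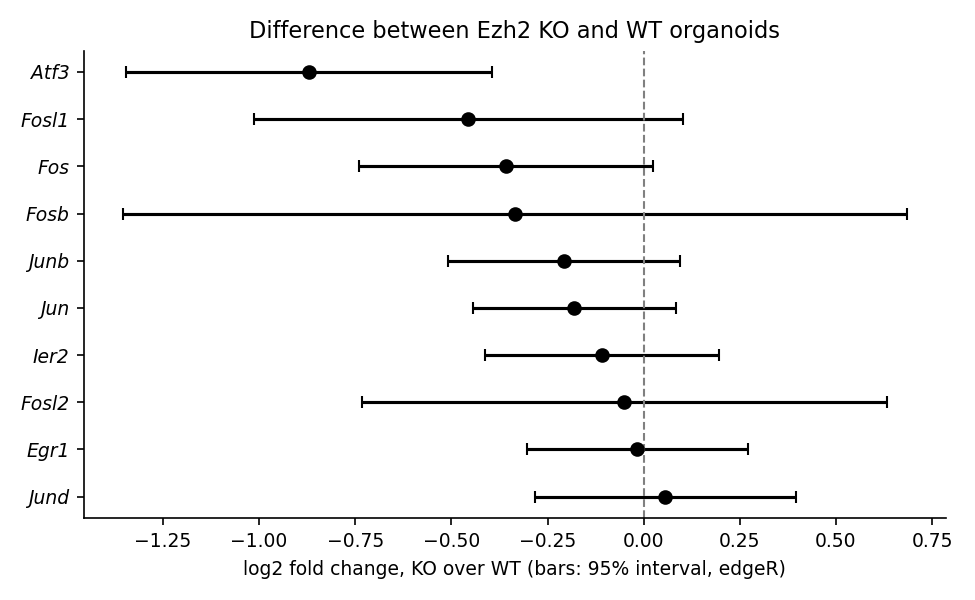
Log2 fold change of each gene, KO over WT, from edgeR (x axis), with its 95% interval as a bar. The interval of Atf3, from −1.35 to −0.39, does not reach 0, and those of the other 9 genes do.

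Over the 10 genes, 0 passed an adjusted p of 0.05 in edgeR, as did 0% of all tested genes. At an unadjusted p under 0.05 edgeR held 1 of the 10, Atf3, which was lower, where 19.8% of the tested genes passed, 10.9% lower and 8.93% higher. DESeq2 called 1 of the 10 lower and 0 higher, where it called 7.37% of the tested genes, 3.4% lower and 3.97% higher. The groups did not overlap for 1 of the 10 and for 28.8% of the tested genes, with all KO libraries below the WT libraries in 14.6% and above them in 14.2%. With 10 genes these counts are not far from the shares among all tested genes. Fold changes were negative for 9 of the 10, against 55.5% of the tested genes, with a median of −0.19 against −0.05. Between 7 and 10 of the 10 were negative over the alternatives. The 95% interval lay within −1 and 1 on the log2 scale for 7 of the 10, and for 67.2% of the tested genes. It reached beyond −1 for Atf3, Fosb and Fosl1.

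Within the KO group most of the genes were highest in the same library. KO replicate 1 was the highest KO library for 8 of the 10, all but Fosb and Fosl2, while it was the highest for 34.5% of the tested genes. In Jund, for example, KO replicate 1 held 323 CPM, above every WT library. The median SD over the KO libraries on the log2 CPM scale was 0.17 for the 10 genes and 0.12 over the tested genes, and over the WT libraries it was 0.21 and 0.28. The WT libraries spread more than the KO libraries for 7 of the 10 genes and for 82.0% of the tested genes. For Junb, Jund and Egr1 the KO libraries spread more than the WT libraries.

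Each gene's pattern was set against the others by the root mean square difference of their log2 CPM over the 6 libraries, after centring each gene on its own mean. The closest pairs were Jun with Egr1 at 0.09, Junb with Ier2 at 0.09, Egr1 with Ier2 at 0.12 and Fos with Fosl1 at 0.13. This measure is small for any genes that vary little between libraries, so a small value need not mean a shared pattern. The farthest pair was Fosb with Fosl2 at 0.85, with Fosb highest in WT replicate 2, where Fosl2 was lowest. Of 10482 other coding genes with a mean of at least 5 CPM, the 5 nearest to Fos were Primpol, Psmg2, Gstcd, Tdg and Ptcd2 at 0.04 to 0.07, against a median of 0.32. With only 6 libraries this list was not stable, and between 1 and 4 of the 5 genes remained when a library was left out.

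**Figure D3:**
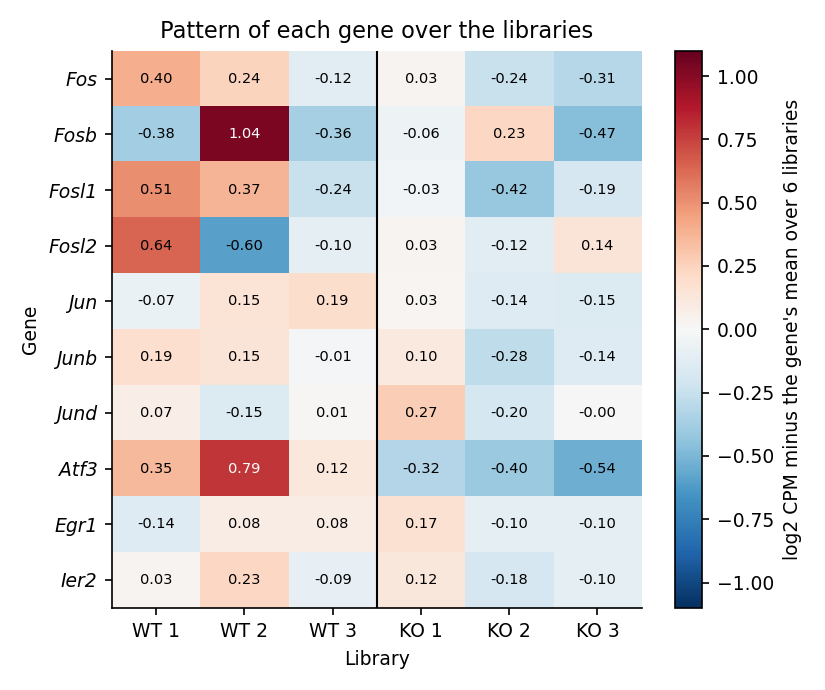
Log2 CPM of each gene (rows) in each library (columns) after subtracting the gene's mean over the 6 libraries, with red above and blue below the mean. Atf3 is above its mean in all WT libraries and below it in all KO libraries, and KO replicate 1 is the highest KO library in 8 of the 10 rows.

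Levels of different genes were compared as deposited FPKM, which divides by gene length. Junb and Jund were the most abundant at 99.8 and 93.5 FPKM over the 6 libraries, above 95.7% and 95.4% of the tested genes. They did not differ beyond their spread, with Junb higher in 4 of the 6 libraries. Fosl2 (39.9 FPKM) and Ier2 (38.9 FPKM) followed, with Fosl2 higher in 3 libraries. Fos (28.0 FPKM) and Jun (23.5 FPKM) came next, and their ranges overlapped although Fos was higher in 5 libraries. Egr1 stood at 13.9 FPKM, below Jun in all 6 libraries without overlap. Atf3 (6.34 FPKM) and Fosl1 (5.48 FPKM) had overlapping ranges, and Fosb was lowest at 1.51 FPKM, above 22.1% of the tested genes. The level of Fosl1, and its share of the Fos family below, may include reads of Ccdc85b.

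Fosl2 and Fos supplied most of the summed Fos family FPKM in every library. Fosl2 made up 57.3%, 37.7% and 54.0% of it in WT replicates 1 to 3 and 53.3%, 55.3% and 60.6% in KO replicates 1 to 3. Fos made up 40.0% ± 7.03 in WT and 35.1% ± 3.36 in KO organoids, Fosl1 8.01% ± 1.87 and 6.59% ± 0.433, and Fosb 2.28% ± 1.71 and 1.91% ± 0.567 (SD, n = 3 per group). WT replicate 2 was the only library in which Fos exceeded Fosl2, and the ranges of the groups overlapped for all 4 genes.

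In the Jun family, Jund held a larger share than Junb in 2 KO libraries and a smaller one in all WT libraries. Jund made up 46.3%, 44.1% and 45.6% of the summed Jun family FPKM in KO replicates 1 to 3 and 42.0%, 38.1% and 42.9% in WT replicates 1 to 3. Junb made up 43.9%, 44.4% and 44.1% in KO and 48.5%, 50.03% and 44.9% in WT libraries. The groups did not overlap for either share, and the gap between the nearest KO and WT libraries was small beside the WT spread. Both shares are parts of the same sum and are not separate observations. By level, the groups did not overlap for 28.8% of the tested genes. The fold changes behind this, −0.21 for Junb and 0.06 for Jund on the log2 scale, were −0.18 and −0.10 with length and GC trends removed, so the contrast between them narrowed, and reads of Jund may include those of Gm11175. Jun held 10.6% ± 0.852 in KO and 11.2% ± 1.42 in WT organoids. These shares are given without a test, and neither Junb nor Jund passed one.

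**Figure D4:**
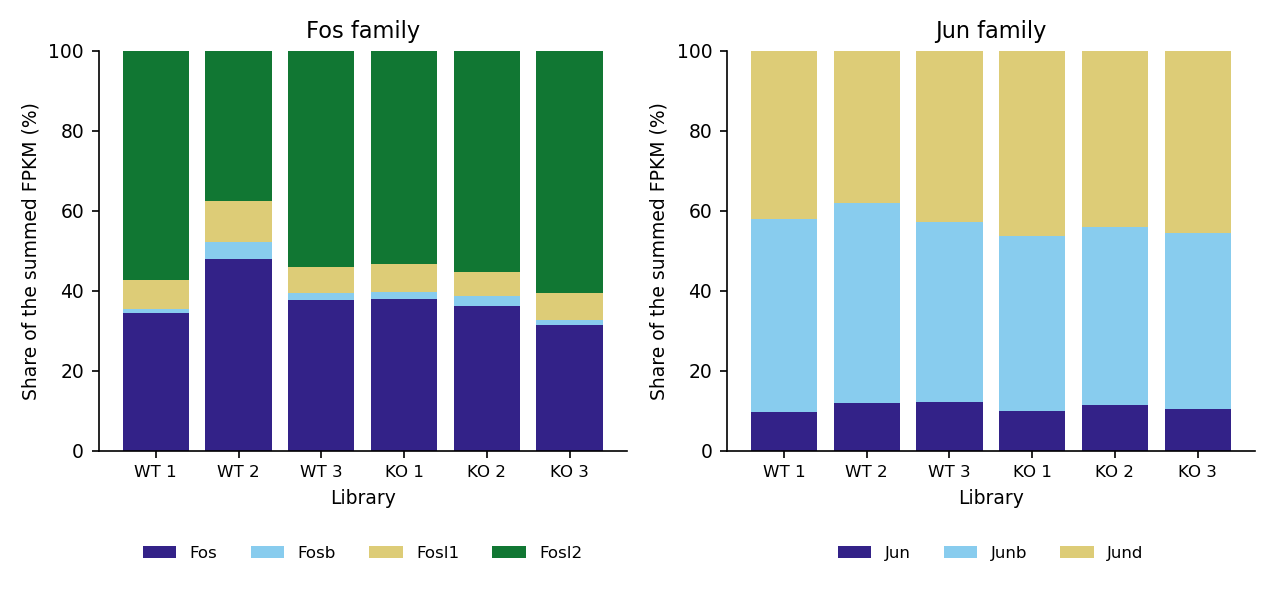
Share of each gene in the summed FPKM of its family (y axis, percent) in each library, for the Fos family on the left and the Jun family on the right. Fosl2 takes 37.7% of the Fos family in WT replicate 2 and more than that in every other library, and Jund takes 44.1% to 46.3% of the Jun family in KO libraries.

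Genes around AP-1 were counted from lists of its inducers, relatives and targets, and 0 members of any list passed an adjusted p of 0.05 in edgeR with all libraries. Without WT replicate 2 edgeR called 216 of 14543 tested genes. Of the list genes named here, these included Mkl2 (edgeR adjusted p = 0.0482), Ddit3 (0.0455) and Gja1 (0.0482). The counts for each list stand beside shares over all tested genes of 10.9% lower and 8.93% higher at an unadjusted p under 0.05 in edgeR, 3.4% lower and 3.97% higher in DESeq2, and 55.5% with a negative fold change. The factors that recruit MAP kinase signals to immediate early promoters, SRF, its ternary complex partners Elk1, Elk3 and Elk4, and the actin-regulated coactivators Mkl1 and Mkl2, all had positive fold changes, and 1 of them was negative with the length trend removed, with length and GC trends removed or without WT replicate 2. Of these 6 genes DESeq2 called 1 higher and 0 lower, where it called 3.97% of all tested genes higher, and the median was 0.25. The called gene, Mkl2, averaged 111 ± 1.38 CPM (SD) over the 3 KO libraries and 74.0 ± 7.48 CPM over the 3 WT libraries, with no overlap. Its log2 fold change was 0.58 ± 0.10 (SE), with an adjusted p of 0.000344 in DESeq2 and 0.0867 in edgeR, and it was 0.27 once trends on length and GC content were removed. Elk4 was at 0.27 ± 0.10 and did not pass.

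The MAP kinases and their activators had a median of −0.03 over 22 tested genes, with 0 called by DESeq2. At an unadjusted p under 0.05 edgeR held 2 of them higher and 0 lower, a share near the 8.93% higher over all tested genes. The stress kinase gene Mapk14 (p38α) was at 0.26 ± 0.09 (SE) and Map2k4, an activator of JNK and p38, at 0.22 ± 0.09. The phosphatases and decay factors that end the response had a median of 0.07 over 15 genes, with 0 called by DESeq2 and 0 at an unadjusted p under 0.05 in edgeR. Dusp1, the immediate early phosphatase of MAP kinases, was at 0.21 ± 0.13.

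Among other immediate early genes 31 of 32 were tested, 23 had negative fold changes and the median was −0.18. DESeq2 called 1 lower, Myc (−0.72 ± 0.18, adjusted p = 0.0184), and 0 higher, and edgeR held 4 lower and 0 higher at an unadjusted p under 0.05. Both counts lower are near the shares of all tested genes, 3.4% and 10.9%. Maff, a small Maf factor, was at −0.42 ± 0.15 (SE), Gadd45b, a stress-induced growth arrest gene, at −0.56 ± 0.21, and the kinase gene Pim1 at −0.995 ± 0.359. Pim1 stood at 88.3, 34.7 and 37.8 CPM in WT libraries and was at −0.42 without WT replicate 1, and Maff was at −0.26 without it. With the length trend removed Gadd45b was at −0.33.

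Other factors with a leucine zipper had a median of −0.07 over 25 tested genes, and DESeq2 called 1 lower and 0 higher, near the 3.4% lower over all tested genes. The called gene was Ddit3, the stress factor CHOP, with 106, 17.6 and 61.9 CPM in WT replicates 1 to 3 and, in the same order, 17.8, 17.7 and 24.3 CPM in the KO replicates. Its log2 fold change was −1.63 ± 0.56 (SE), with an adjusted p of 0.0225 in DESeq2 and 0.188 in edgeR. Leaving out WT replicate 1 gave −0.97, and leaving out WT replicate 2 gave −2.07. WT replicate 2 lay below every KO library for Ddit3, whereas for Atf3 it was the highest library. Atf4, which induces Ddit3 and Atf3 in stressed cells, was at −0.53 ± 0.21 (SE) and did not pass, with −0.24 without WT replicate 1, and Atf1, a CREB relative, was at −0.39 ± 0.11.

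Among known targets of AP-1, 29 of 34 were tested, 17 had negative fold changes and the median was −0.15, or 0.02 without WT replicate 3. DESeq2 called 0 of them, and edgeR held 2 lower and 0 higher at an unadjusted p under 0.05, below the 10.9% lower over all tested genes. Plaur, the urokinase receptor, was at −0.34 ± 0.13 (SE) and Vegfa, the vascular growth factor, at −0.52 ± 0.21, or −0.24 without WT replicate 1. Plaur was at −0.15 with length and GC trends removed. The cytokine gene Il11 was at 0.57 ± 0.26 and the gap junction gene Gja1 at −0.33 ± 0.15, which ran from −0.48 with WT replicate 2 left out to −0.21 with WT replicate 1 left out.

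**Figure D5:**
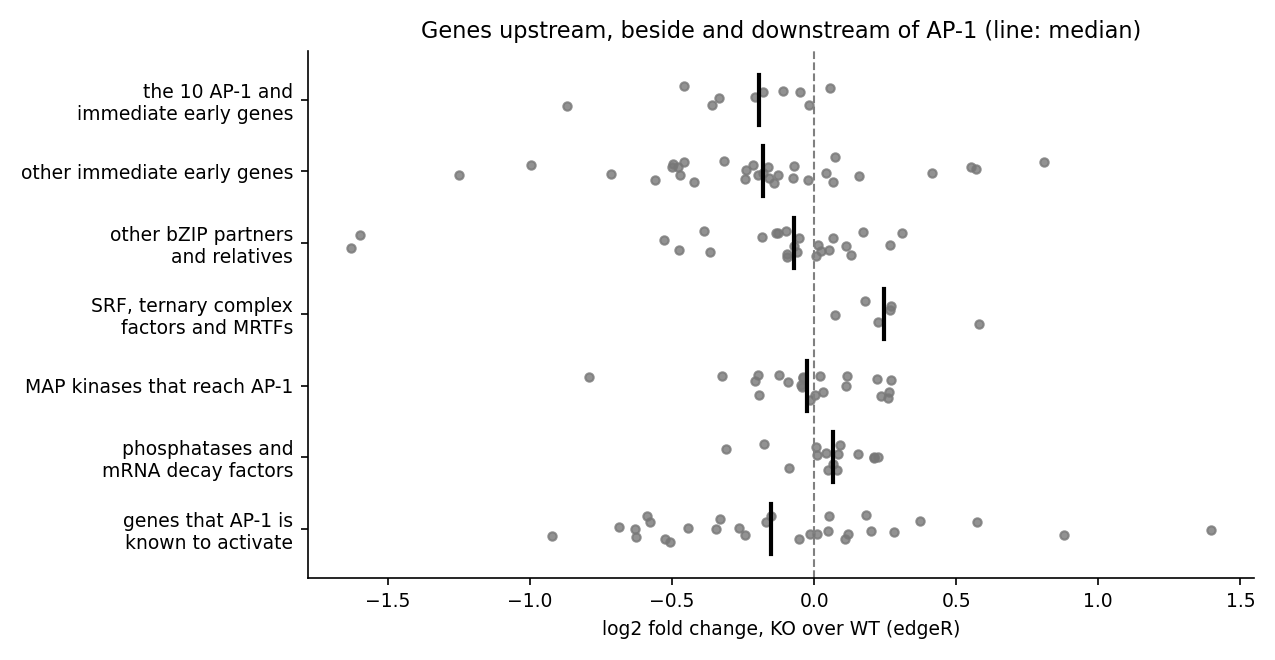
Log2 fold change, KO over WT, of each tested gene (points, x axis) in the lists around AP-1 (rows, spread vertically for legibility), with the list's median as a black line. The medians lie between −0.19 for the 10 AP-1 and immediate early genes and 0.25 for SRF and its partners.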

How the data were processed

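The authors deposited a table with a raw read count per gene and library, per the file headers, and FPKM values beside them, which divide counts by gene length and library total. Per the submitters' processing notes, CASAVA, STAR and mm10 were used, and the counting tool and annotation were not found in the labels. The authors' deposited signal columns (mean normalized count per group) were not used. Their deposited log2 fold change, p-value and adjusted p come from a test that is not named. Poly(A) RNA was fragmented, primed with random hexamers and amplified by PCR, per the labels' protocols, with no strand-marking step named.

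The test over all genes was that of edgeR 4.0.16 (R 4.3.3): TMM scaling, a minimum count of 10 and minimum total of 15, a robust quasi-likelihood F test and Benjamini-Hochberg adjustment at 0.05. Standard errors of fold changes were derived from the fold change and the F statistic of the test, and intervals use them with a t quantile. The script was tested on simulated data. Libraries of a group differed by more than sampling noise (chi-square per gene 13.8 to 22.6 between KO and 73.8 to 145 between WT pairs).

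Alternatives were DESeq2 1.42.0, other scalings and filters, no robust estimation, a replicate block, limma 3.58.1 on log2(FPKM + 1) and log2(FPKM + 0.1) above 0.5 FPKM in 3 libraries, removal of a gene length trend with mgcv 1.9.3 and each library left out. Added after seeing the data were the joint length and GC trend (GENCODE M21) and DESeq2 with a library left out. The 10 genes and the lists were chosen with earlier results of these data known. Named genes are the 10, Ezh2, up to 4 per list with the smallest p, and the nearest 5 to Fos and to Fosl1, the latter not reported here. Junos, Ccdc85b and the low lymphocyte markers were named after their values were seen.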

Additional observations from a re-analysis of the deposited data

How the results depend on the processing

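Over 17 alternatives the 10 AP-1 and immediate early genes gave 170 fold changes, of which 154 kept direction and side of the threshold, 1 passed it (Atf3 in DESeq2) and 15 changed sign, none of them past the threshold. The other 48 named genes gave 805, of which 781 kept both, 21 passed the threshold and 3 changed sign. Fosl2 was at 0.038 with the replicate block and at 0.032 and 0.034 in limma with pseudocounts of 1 and 0.1, Egr1 at 0.0084 with no filter, Ier2 at 0.070 with the length trend removed and Jund at −0.10 with the length and GC trends removed. With a library left out, in edgeR or DESeq2, Fosb ran from −0.57 to 0.33, Fosl2 from −0.30 to 0.37, Jund from −0.074 to 0.17 and Egr1 from −0.11 to 0.049, and among other named genes, in edgeR, Pdgfrb from −0.045 to 0.83, Dcn from −0.55 to 0.35 and Pecam1 from −1.12 to 0.057. Atf3 ran from −1.01 to −0.65, and its adjusted p from 0.00738 to 0.417 over the 17 alternatives. Of the 10 genes, DESeq2 called 1, and 0 to 1 with a library left out. The count of called genes over the whole table was 0 in edgeR, 1046 in DESeq2, 131 with no filter, 2 in limma with either pseudocount, 374 at an adjusted p of 0.10 and 0 to 216 with a library left out, the highest without WT replicate 2 and 38 without WT replicate 1. Ezh2 passed in DESeq2 (−1.47), with no filter (−1.46) and without WT replicate 2 (−1.33), within −1.63 to −1.33 with a library left out. DESeq2 also called 1 gene each of the other immediate early, leucine zipper, SRF and heat shock lists, where edgeR called 0. Of the markers tested DESeq2 called 3 of 14 luminal, 2 of 10 basal and 2 of 12 immune, and edgeR called 0. The DESeq2 share over all tested genes was 7.37%. CPM per kilobase gives the same family shares as FPKM by construction and tests nothing. Deviations of same-numbered libraries correlated at −0.07, 0.25 and 0.08, so the numbers were not taken to pair samples, and the replicate block gave 0 calls. The cause of these shifts was not tested. With 3 libraries per group, small differences may have gone undetected, and the intervals given show how precisely each difference was measured.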

Other observations

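Heat shock and chaperone genes, many of which respond to stress and handling as immediate early genes do, had a median log2 fold change of −0.17 over 14 tested genes, and DESeq2 called 1 of them lower and 0 higher, against 3.4% lower and 3.97% higher over all tested genes. Hspe1, the mitochondrial co-chaperonin, averaged 60.8 ± 5.32 CPM (SD) over the 3 KO libraries and 116 ± 16.6 CPM over the 3 WT libraries. Its fold change was −0.94 ± 0.13 (SE) on the log2 scale, with an adjusted p of 2.53e-06 in DESeq2 and 0.0755 in edgeR, and it was −0.62 with length and GC trends removed. Hspa5, the chaperone BiP of the endoplasmic reticulum, was at −0.62 ± 0.25 and did not pass, with 1444, 953 and 711 CPM in WT replicates 1 to 3, and it was at −0.29 without WT replicate 1. The cytosolic chaperone genes Hspa8 (−0.21 ± 0.12, or −0.13 without WT replicate 1) and Hsp90aa1 (0.17 ± 0.13, from 0.09 to 0.27 with a library left out) did not pass either.

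For the cell type markers, DESeq2 calls stand beside 3.4% lower and 3.97% higher over all tested genes. Among 14 luminal markers tested the transcription factor genes Gata3 and Ehf were called higher by DESeq2, at 0.53 ± 0.09 and 0.36 ± 0.11 (SE). The keratin gene Krt19 was called lower at −0.89 ± 0.21, and edgeR called 0 of them. Among 10 basal markers tested Oxtr was called higher, at 1.70 ± 0.35, and the contractile gene Cnn1 lower, at −1.19 ± 0.23. Among 12 immune markers tested DESeq2 called 2 lower, Itgam at −1.45 ± 0.37 and Tyrobp at −1.99 ± 0.75, and 0 higher. Tyrobp stood at 2.68, 25.7 and 7.61 CPM in WT replicates 1 to 3. It stood at 3.62, 3.33 and 2.06 CPM in KO replicates 1 to 3, so the groups overlapped. With a library left out Tyrobp ran from −2.46 to −0.76 and Itgam from −1.79 to −1.04.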
